A study of Homo sapiens with 15 samples.

Results

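The comparison set 3 arrays of SKOV3ip1 cells given the antibody labelled MORAb003 against 5 arrays of 2 folate-fed control extracts, 3 from cells given no antibody and 2 from cells given the control antibody 004. These are 8 of the 15 arrays of the series. SKOV3ip1 is an established human epithelial ovarian cancer cell line. All 3 cultures were fed folic acid, at 2 to 10 nM (the labels print nm), over 7 days, and the antibodies were present for 24 hours. The sample titles write the folate as 5-MTF in the control arrays and as MTF in the MORAb003 arrays. The arrays are Affymetrix U133 Plus 2.0 arrays, on which each transcript is read by one or more probe sets. Each condition was a single cell growth and a single RNA extract, of which 3 aliquots were hybridised, so every p-value below measures the error between aliquots and compares 3 extracts. The spread between separate cultures was not measured, and antibody and culture cannot be told apart. Replicate 1 of the 004 extract was left out because it stood apart from its own extract (correlation across probe sets of at most 0.95). The labels give no dose of antibody. Another condition received an antibody they call 003, whose relation to MORAb003 is not stated.

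MORAb-003, known as farletuzumab, binds folate receptor alpha, the product of FOLR1. That receptor sits in the outer leaflet of the membrane on a lipid anchor, carries folate into the cell by endocytosis and is abundant on many epithelial ovarian cancers. Growth factor receptors signal through RAS and the kinase ERK to a first wave of genes, the immediate early genes, and to a later set of feedback inhibitors, among them the DUSP phosphatases and the Sprouty proteins. Wnt ligands act through Frizzled receptors and LRP co-receptors on beta-catenin.

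A gene was represented by its brightest probe set, and 13982 genes passed the filter on dim signals. A call required a Benjamini-Hochberg adjusted p under 0.05 in limma's moderated test and a 1.5-fold difference or more. Differences are on the deposited log2 scale, where 1 unit is a 2-fold change. In MORAb003 cells 1347 genes (9.63% of those tested) were called against both controls in the same direction. Of these, 1109 (7.93%) were higher and 238 (1.7%) were lower, and 0 were called in opposite directions. Against the folate extract alone 1466 genes (10.5%) were called, 1184 higher (8.47%) and 282 lower (2.02%). Against the 004 extract alone 1748 (12.5%) were called, 1408 higher (10.1%) and 340 lower (2.43%). In all 1347 genes the 3 MORAb003 arrays lay outside the range of the 5 control arrays, which was so for 24.8% of all genes tested on the high side and 25.9% on the low side. The smaller of a gene's 2 differences reached 2-fold for 216 higher and 19 lower genes and 3-fold for 18 higher and 3 lower genes. The higher calls were thus more numerous, while the largest of all these differences, -2.20, belonged to a lower gene, LRRFIP1. A gene was tested where the mean of any of the 3 extracts reached the filter of 6.57. For 156 genes only the MORAb003 mean did so, and such a gene could be called only higher: 73 of the 1109 higher calls and 7 of the genes named below (ANKRD1, CLUL1, DKK1, MANEA, SPICE1, SPRED1 and WIPI1) are of this kind. With the filter on the mean of the 3 extracts 1066 higher and 238 lower calls were made. The median difference of all genes tested was -0.04 against folate and -0.05 against 004. With each array centred on its median the call split was 780 higher and 441 lower, or 63.9% higher against 82.3% as deposited, and after quantile normalization it was 833 and 405, or 67.3% higher.

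The folate and 004 extracts were hard to tell apart. Between them 0 genes (0%) were called by limma, 704 genes (5.04%) had an unadjusted p under 0.05, and the smallest adjusted p was 0.335. Arrays of the folate and 004 extracts correlated across probe sets at 0.995 to 0.997, as did arrays of 1 extract at 0.995 to 0.998. Arrays of the MORAb003 extract correlated with the control arrays at 0.981 to 0.991. The 2 controls thus differed by no more than aliquots of a single extract do. That distance is between extracts that also differ in the 004 antibody, and it does not measure the spread among separate folate-fed cultures.

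**Figure D1:**
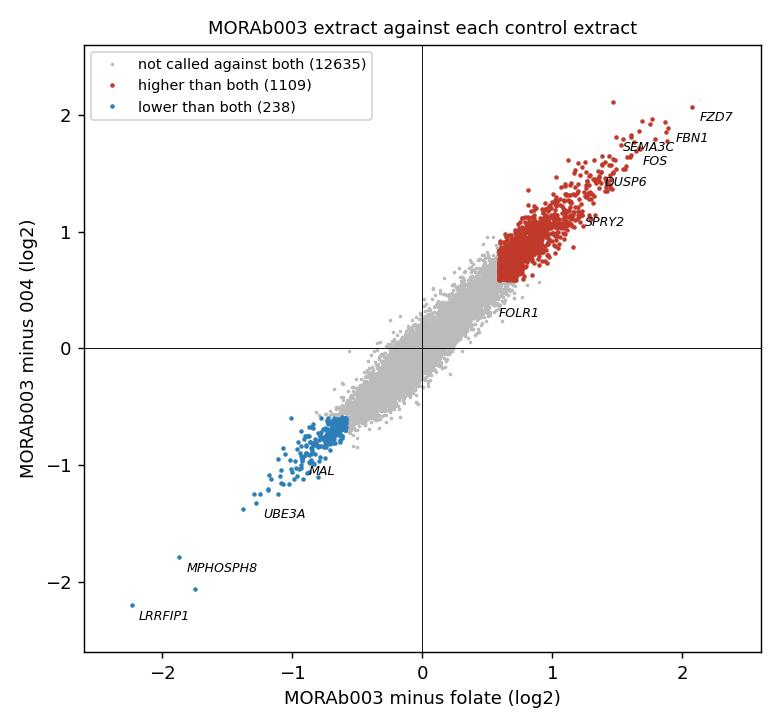
Each point is 1 of the 13982 genes tested, with the MORAb003 extract's difference from the folate extract (x axis, log2) and from the 004 extract (y axis, log2). Genes called against both controls are red (1109 higher) or blue (238 lower), and both axes share the MORAb003 arrays, so points near the diagonal show only that the 2 control extracts read alike.

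Several technical readouts moved with the MORAb003 extract, and their part in the results was not tested. Between the 3′ and 5′ probe sets of actin the log2 gap was 2.42 ± 0.13 (SD, n = 3 arrays) in MORAb003, 3.24 ± 0.13 in folate and 3.28 ± 0.01 (n = 2) in 004. The gap for GAPDH was 1.21, 1.97 and 1.89. A smaller gap is a usual sign of longer RNA or cRNA. The 18 probe sets of hybridisation spikes were lower in the MORAb003 arrays by a median of 1.46 than in folate and 1.83 than in 004. The mean of the 12 epithelial markers was 11.07 to 11.14 in MORAb003 arrays, 11.05 to 11.09 in folate and 11.07 to 11.11 in 004. Among them PAX8 had means of 12.74, 12.82 and 12.84 in that order, and MUC16, at 6.41, 6.62 and 6.74, lay near the filter. Members moved both ways: KRT18 had means of 14.40, 14.12 and 14.09. KRT8 was the only one of the 12 called, higher by 0.67 than folate and 0.61 than 004. Of the markers of other cells, 3 of 6 fibroblast, 3 of 4 endothelial, 1 of 4 leukocyte and 2 of 3 mesothelial genes passed the filter, and 0 were called. PTPRC, the leukocyte marker CD45, stayed under the filter, as did LUM of fibroblasts, KDR of endothelium and MSLN. Of those that passed, COL1A1 of fibroblasts had means of 8.77, 9.08 and 9.18 in MORAb003, folate and 004. Means of PECAM1 of endothelium were 8.46, 8.64 and 8.63. Other markers were higher in MORAb003: CDH5 of endothelium, at 7.44, 6.99 and 6.92, and CD3E of leukocytes, at 7.13, 6.85 and 6.82.

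FOLR1, the target of the antibody, gave 2 readings that went opposite ways. Its brightest probe set read 14.04, 14.11 and 14.03 in the MORAb003 arrays, 13.45, 13.63 and 13.50 in folate and 13.57 and 13.76 in 004. All MORAb003 arrays lay above all control arrays, as they did for 24.8% of all genes tested. The differences were 0.53 (SE 0.08, limma adjusted p = 9.53e-05) and 0.39 (SE 0.09, adjusted p = 0.0024), or 1.45-fold and 1.31-fold, under the 1.5-fold minimum. A second, dimmer FOLR1 probe set had a mean of 9.47 in MORAb003, 10.38 in folate and 10.55 in 004, a difference of -0.90 and -1.08. A direction for FOLR1 as a whole is therefore not given by these arrays.

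The genes highest above both controls were led by FZD7, a Frizzled receptor for Wnt ligands. It read 10.96, 11.16 and 10.84 in MORAb003, 9.07, 8.76 and 8.90 in folate, and 8.68 and 9.16 in 004. The 3 MORAb003 arrays stood more than 1.5 log2 units above the highest control array. FZD7 rose by 2.07 against each control (SE 0.12 and 0.14, limma adjusted p = 8.68e-08 and 2.61e-07), or 4.21-fold and 4.19-fold, and its second probe set differed by 1.53 and 1.84. FBN1, which encodes fibrillin-1 of extracellular microfibrils, read 11.32, 11.66 and 11.36 against 9.58, 9.51 and 9.58 in folate and 9.53 and 9.58 in 004. The control arrays of FBN1 lay close together, and it rose by 1.89 against both (adjusted p = 1.96e-08 and 5.21e-08). Its second probe set differed by only 0.49 and 0.59.

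Other genes of this top set encode matrix, adhesion and metabolic proteins. MATN2, the matrix protein matrilin-2, read 8.43, 8.61 and 8.64 in MORAb003, 6.92, 6.75 and 6.64 in folate and 6.80 and 6.73 in 004, and rose by 1.79 against each. ITGA2, the collagen-binding integrin alpha 2 chain, read 9.11, 9.42 and 9.21 against 7.78, 7.31 and 7.34 in folate and 7.16 and 7.41 in 004. It rose by 1.77 and 1.96, and its second probe set differed by 0.72 and 0.63. CTH, cystathionine gamma-lyase, which makes cysteine from cystathionine, read 11.18, 11.18 and 11.11 against 9.62, 9.17 and 9.41 in folate and 9.27 and 9.19 in 004. CTH rose by 1.75 against folate (SE 0.10, adjusted p = 6.55e-08) and by 1.92 against 004 (SE 0.11, adjusted p = 8.53e-08), and a second CTH probe set differed by 1.56 and 1.61. The groups did not overlap for any of these 3 genes, as for every gene called.

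FZD6, another Frizzled receptor, read 10.59, 10.89 and 10.57 in MORAb003, 9.23, 8.93 and 8.89 in folate, and 8.91 and 9.02 in 004, and rose by 1.66 and 1.72. MANEA, an endomannosidase of the Golgi, rose by 1.69 and 1.95. GDPD1, a lysophospholipase D, rose by 1.88 and 1.78, while its second probe set differed by 0.55 and 0.47. SPICE1, a centriole and spindle protein, rose by 1.67 and 1.86 from control means of 5.78 and 5.58, and like MANEA and CLUL1 it passed the filter only through the MORAb003 mean. CLUL1, ZPLD1 and FAM171B rose by 1.87, 1.87 and 1.68 against folate and by 1.94, 1.85 and 1.70 against 004. Control means of CLUL1, ZPLD1 and FAM171B were between 6.07 and 6.71, near the filter of 6.57, where the deposited scale may understate a difference.

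**Figure D2:**
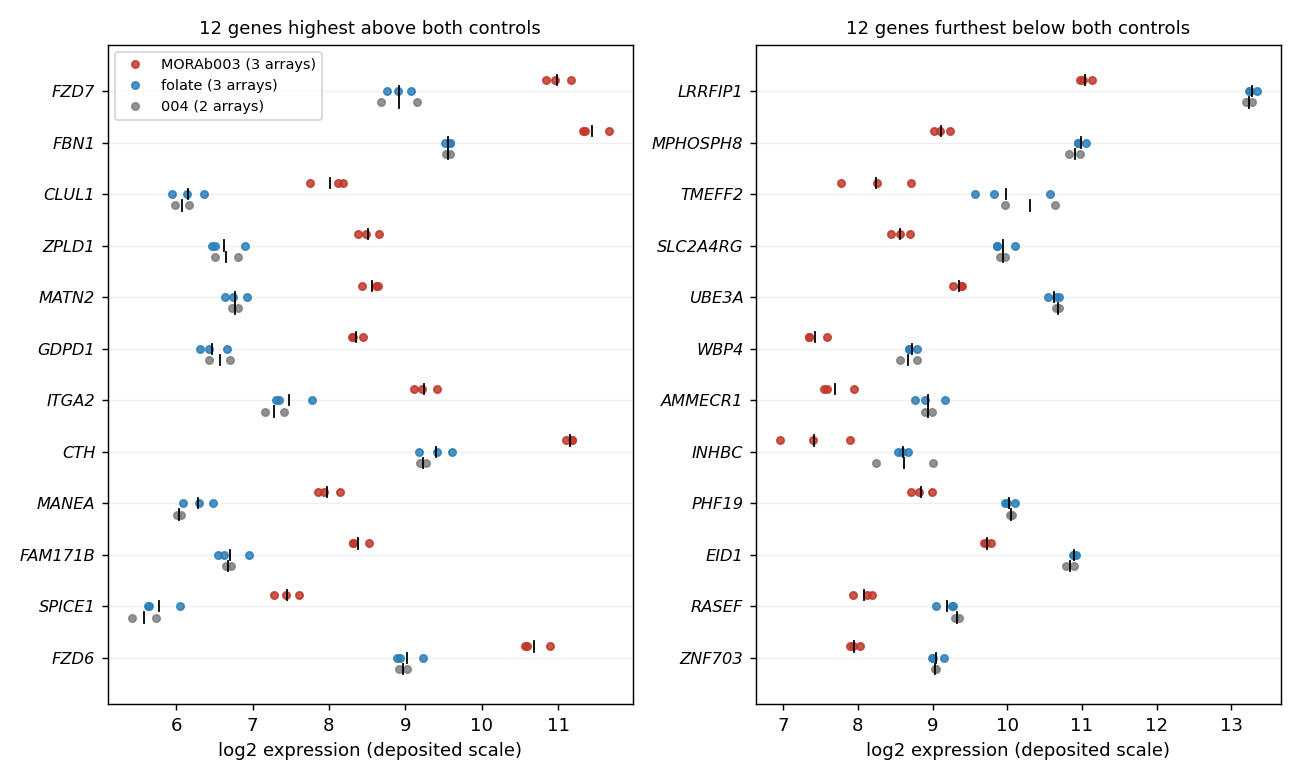
Log2 expression (x axis, deposited scale) of the 12 genes highest above and the 12 furthest below both controls, with 1 point per array and a black bar at each extract's mean. MORAb003 arrays (red) lie apart from folate (blue) and 004 (grey) for all 24 genes, as they do for all 1347 genes called. The MORAb003 values of FZD7 are 10.84 to 11.16 and those of ZNF703 are 7.90 to 8.02.

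Among the 12 genes furthest below both controls, most had another probe set that did not share the fall. LRRFIP1, which binds nucleic acids and Flightless-I, read 10.98, 11.02 and 11.14 in MORAb003, 13.24, 13.34 and 13.26 in folate and 13.28 and 13.20 in 004. Against folate it fell by 2.23 (SE 0.07, limma adjusted p = 6.85e-10), and against 004 it fell by 2.20 (SE 0.08, adjusted p = 3.95e-09). The next LRRFIP1 probe set, of similar brightness, differed by 0.17 and 0.32, and its 6 other probe sets above the filter ranged from -0.80 to 0.52 against folate, 3 of them lower than both controls. MPHOSPH8, a reader of methylated histone H3 in the HUSH silencing complex, read 9.01, 9.10 and 9.23 against 11.06, 10.95 and 10.94 in folate and 10.82 and 10.98 in 004. It fell by 1.87 and 1.79, while its other probe sets differed by 0.01 and 0.57 against folate. UBE3A, the E6-AP ubiquitin ligase, fell by 1.28 and 1.32, and its other 3 probe sets differed by -0.01 to 0.10 against folate. WBP4, a splicing factor, fell by 1.29 and 1.25, with other probe sets at 0.05 and 0.45. The same held for SLC2A4RG (fell by 1.38, others at -0.18 and 0.39), EID1 (fell by 1.17, others at 0.02 and 0.23) and INHBC (fell by 1.19, the other at 0.03).

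In RASEF, PHF19 and AMMECR1 a further probe set was lower too. RASEF, a RAB-family GTPase, read 7.93, 8.12 and 8.19 in MORAb003, 9.27, 9.26 and 9.05 in folate, and 9.30 and 9.36 in 004. RASEF fell by 1.11 and 1.25, and its second probe set differed by -1.02 and -1.18. PHF19, a Polycomb-associated reader of methylated histone H3, fell by 1.18 and 1.21. Its further probe sets differed by -0.98 and -0.12 against folate and by -0.97 and 0.01 against 004. AMMECR1 fell by 1.25 against both, with another probe set at -0.56 and -0.34. TMEFF2, a transmembrane protein with follistatin-like domains, had a wide spread: 7.77, 8.26 and 8.71 in MORAb003, 9.57, 10.57 and 9.83 in folate, and 10.64 and 9.97 in 004. Against folate it fell by 1.75 (SE 0.25, adjusted p = 7.5e-05), and against 004 it fell by 2.06 (SE 0.28, adjusted p = 5.11e-05). ZNF703, a transcriptional corepressor, fell by 1.10 and 1.09.

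Over all genes called, 561 of the 1109 higher genes had another probe set above the filter. For 362 of them (64.5%) all such probe sets differed in the direction of the call from both controls, and for 6 another probe set went at least 1.5-fold the opposite way. Of the 238 lower genes 143 had another probe set, for 65 (45.5%) all went the same way, and for 14 another went at least 1.5-fold the opposite way. Among uncalled genes the share that went the same way was 46.4%. Lower calls were thus shared by other probe sets of a gene about as often as the signs of uncalled genes were. Probe sets can read different transcript ends and variants, and those named with _s_at or _x_at can read several transcripts. Which of these applies was not tested. Among the named genes called higher 60 had other probe sets above the filter, and for 20 of them not all went the way of the call.

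**Figure D3:**
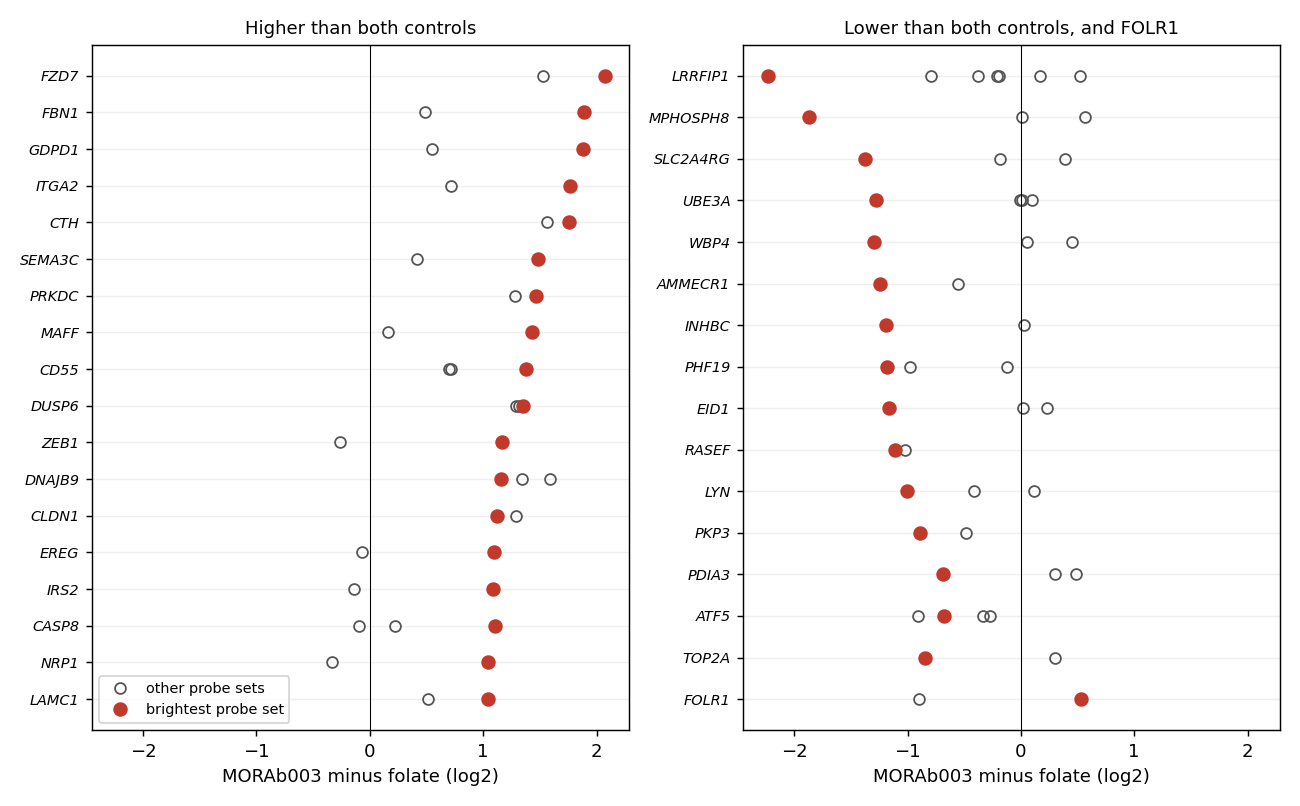
Difference of the MORAb003 from the folate extract (x axis, log2) for each probe set above the filter, with the brightest probe set filled and the others open, for named genes with more than 1 such probe set, the first 18 of those called higher and all 15 called lower, and for FOLR1. Other probe sets of DUSP6, CTH and DNAJB9 lie close to the brightest, those of UBE3A, WBP4 and EID1 lie at or above 0, and the 2 of FOLR1 lie on opposite sides of 0.

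Immediate early genes rose in 7 of the 22 tested members of their list and fell in 0, against 7.93% and 1.7% of all genes tested. The list's median difference was 0.37 against folate and 0.49 against 004, against -0.04 and -0.05 for all genes. FOS, a subunit of the AP-1 transcription factor, read 9.13, 9.20 and 9.38 in MORAb003, 7.63, 7.61 and 7.56 in folate and 7.49 and 7.60 in 004. The lowest MORAb003 array lay well above the highest control array. FOS rose by 1.64 (SE 0.08, limma adjusted p = 2.45e-08) and 1.69 (SE 0.09, adjusted p = 5.21e-08), or 3.12-fold and 3.23-fold. EGR1, a zinc finger factor induced by serum and growth factors, read 10.02, 10.20 and 9.81 against 9.01, 8.99 and 8.98 in folate and 8.95 and 8.99 in 004. It rose by 1.02 and 1.04, and its other probe sets differed by 1.67 and 0.29 against folate. MAFF, a small MAF factor, read 10.08, 9.76 and 9.77 against 8.5, 8.26 and 8.55 in folate and 8.25 and 8.35 in 004, and rose by 1.43 and 1.57 on its brightest probe set, with 0.16 and 0.17 on the other.

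DUSP1, a nuclear phosphatase that switches off MAP kinases, read 11.06, 11.05 and 11.11 in MORAb003, 10.15, 10.19 and 10.04 in folate and 10.05 and 10.18 in 004. It rose by 0.95 and 0.96, but its other probe sets differed by -0.28 and 0.01 against folate. KLF10 rose by 0.86 and 0.94, MYC by 0.79 and 0.80. JUN, the partner of FOS in AP-1, differed by -0.35 and -0.24 and was not called, JUNB differed by 0.49 and 0.53, and FOSL1 by 0.02 and -0.06. The list thus held members well above and members slightly below the controls. Only 2 of the 22 genes were called when replicate 1 of the 004 extract was put back. In the 11 members tested on a second brightest probe set 2 were called by it, and their median against folate was -0.07.

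The promoters of FOS, EGR1, DUSP1 and MAFF are shown because they are the members called higher that hold the letters TGACGT, the core of the cyclic AMP response element that CREB and ATF factors bind. They are from RefSeq on GRCh38.p14, 250 bases up to the annotated start of transcription, 5′ to 3′ on the strand of the gene, with capitals marking TGACGT on either strand and, in EGR1, also the CArG box, the site of serum response factor. FOS is at chr14:75278578-75278827 on the plus strand, EGR1 at chr5:138465229-138465478 on the plus strand, DUSP1 at chr5:172771196-172771445 on the minus strand and MAFF at chr22:38201744-38201993 on the plus strand.
FOS: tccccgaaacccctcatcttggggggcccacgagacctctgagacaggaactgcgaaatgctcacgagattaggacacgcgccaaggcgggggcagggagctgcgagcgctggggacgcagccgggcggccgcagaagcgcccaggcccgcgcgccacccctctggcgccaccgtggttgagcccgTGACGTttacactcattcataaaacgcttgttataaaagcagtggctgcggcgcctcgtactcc
EGR1: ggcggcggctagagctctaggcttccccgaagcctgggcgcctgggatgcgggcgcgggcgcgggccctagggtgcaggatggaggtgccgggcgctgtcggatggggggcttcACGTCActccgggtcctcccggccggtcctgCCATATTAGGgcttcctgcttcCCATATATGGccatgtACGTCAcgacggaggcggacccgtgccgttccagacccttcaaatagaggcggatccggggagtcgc
DUSP1: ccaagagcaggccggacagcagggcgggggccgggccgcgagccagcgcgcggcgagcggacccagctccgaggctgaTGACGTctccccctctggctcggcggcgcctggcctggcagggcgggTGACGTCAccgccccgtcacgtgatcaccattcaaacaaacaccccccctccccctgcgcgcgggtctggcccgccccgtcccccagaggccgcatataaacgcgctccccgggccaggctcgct
MAFF: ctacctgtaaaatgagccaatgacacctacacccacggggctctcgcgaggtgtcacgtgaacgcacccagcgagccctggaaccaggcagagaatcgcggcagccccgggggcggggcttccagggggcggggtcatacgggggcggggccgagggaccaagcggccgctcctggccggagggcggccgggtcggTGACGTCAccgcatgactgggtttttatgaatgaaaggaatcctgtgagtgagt
Counted in bases from the start, the match in FOS begins at -64. In EGR1 the matches begin at -136 and -67, with CArG boxes at -105 and -83. DUSP1 and MAFF each hold a pair of overlapping matches on opposite strands, at -125 and -123 in DUSP1 and at -54 and -52 in MAFF, and DUSP1 holds another at -172. Of the 13 called members of the immediate early and ERK feedback lists, 10 had an entry in the table, and KLF10, MYC and DUSP5 had none. The letters TGACGT occurred in 7.42% of all 27305 promoters, in 9.73% of those of genes tested and in 12.3% of those of genes called higher. CArG boxes occurred in 1.14% of all promoters, in 1.05% of those of genes tested and in 1.1% of those of genes called higher. The AP-1 site TGANTCA was in 2.97% of promoters of genes called higher and 4.33% of those of genes tested. For the ETS site CCGGAAG these shares were 16.3% and 14.5%. None of these differences in share was tested. A match of letters is a description and does not show that a factor binds there.

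Feedback genes of the ERK pathway rose in 6 of the 20 tested members (30%) and fell in 0, against 7.93% and 1.7% of all genes tested. The list's median was 0.33 against folate and 0.44 against 004. DUSP6, a cytoplasmic phosphatase specific for ERK, read 12.95, 12.96 and 12.91 in MORAb003, 11.67, 11.52 and 11.59 in folate and 11.37 and 11.48 in 004. The MORAb003 arrays lay close together and far above the controls. DUSP6 rose by 1.35 (SE 0.07, limma adjusted p = 4.52e-08) and 1.52 (SE 0.08, adjusted p = 5.23e-08), or 2.55-fold and 2.86-fold, and its other probe sets by similar amounts, 1.29 and 1.31 against folate. SPRY2, an inhibitor of receptor tyrosine kinase signalling, read 12.06, 12.16 and 12.03 against 11.02, 10.75 and 10.89 in folate and 10.96 and 10.86 in 004, and rose by 1.19 and 1.17. DUSP5, a nuclear ERK phosphatase, rose by 0.86 and 0.98.

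SPRY1 rose by 0.81 and 0.85, with a second probe set at -0.06 and 0.13. SPRED1, a relative of the Sprouty proteins, rose by 0.75 against each, but passed the filter only through its MORAb003 mean, and without it the count is 5 of 19. PHLDA1 rose by 0.70 and 0.95, and its other 5 probe sets differed by 0.35 to 0.80 against folate. Members not called against both controls include ETV5, an ETS factor, at 0.56 and 0.53, DUSP4 at 0.32 and 0.42, SPRY4 at 0.37 and 0.70, CCND1 at 0.05 and 0.13, and IER3 at -0.38 and -0.39. Putting replicate 1 of 004 back left 4 of 20 called higher, and with each array centred on its median 6 higher and 1 lower.

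**Figure D4:**
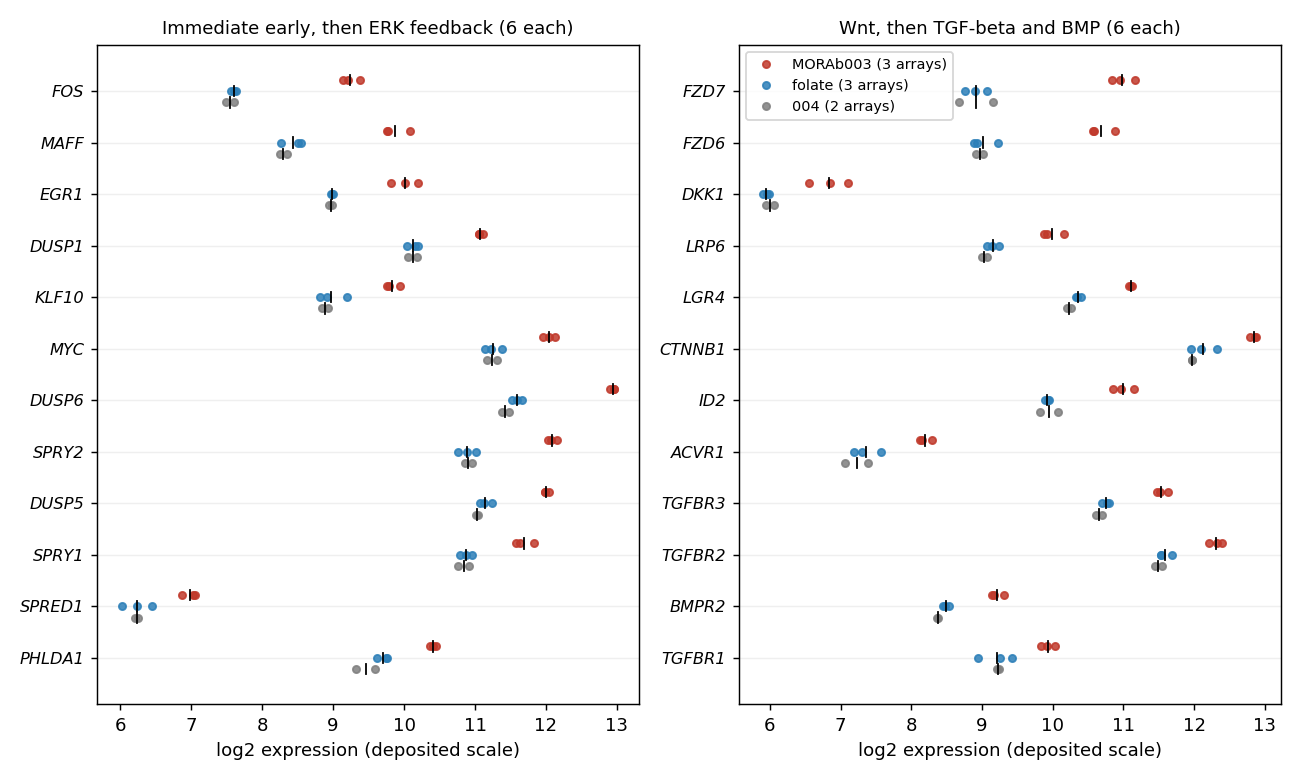
Log2 expression (x axis, deposited scale) on each array for 6 immediate early genes and 6 ERK feedback genes (left) and 6 Wnt and 6 TGF-beta and BMP genes (right), the called members with the largest smaller difference, with a black bar at each extract's mean. For these 24 genes, as for all 1109 genes called higher, the MORAb003 arrays lie to the right of all 5 control arrays. DUSP6 lies at 12.91 to 12.96 against 11.37 to 11.67.

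Ligands and receptors of the EGF family moved in part. EREG, the ligand epiregulin, read 10.54, 10.63 and 10.50 in MORAb003, 9.48, 9.57 and 9.34 in folate and 9.18 and 9.31 in 004. It rose by 1.09 (SE 0.08, limma adjusted p = 3.73e-07) and 1.32 (SE 0.09, adjusted p = 3.54e-07), with a second probe set at -0.07 and -0.16. The count was 3 of 11 higher (27.3%, against 7.93% of all genes tested) and 0 lower, or 1 with replicate 1 of 004 included. ERBB3, the kinase-impaired partner of ERBB2, read 8.45, 8.53 and 8.42 against 7.80, 7.58 and 7.40 in folate and 7.31 and 7.23 in 004, and rose by 0.87 and 1.20, with its other probe sets at -0.18 and 0.98 against folate. ADAM10, a protease that sheds membrane-bound ligands, rose by 0.62 and 0.74, with others at 0.15 and 1.21 against folate. EGFR at 0.24 and 0.17, ERBB2 at 0.07 and 0.11, HBEGF at 0.05 and 0.10 and TGFA at 0.52 and 0.61 were not called against both.

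Of 21 tested genes of Src family and PI3K-AKT signalling, 3 rose (14.3%) and 1 fell (4.76%). Of all genes tested 7.93% were called higher and 1.7% lower. IRS2, an adaptor of insulin and IGF receptors, rose by 1.09 and 1.27 on its brightest probe set, with -0.14 and -0.06 on the other. RICTOR, a subunit of the mTORC2 complex, rose by 0.86 and 1.19, with a second probe set at 0.91 and 1.22. FOXO1, a factor that AKT keeps out of the nucleus, read 10.49, 10.57 and 10.53 against 9.83, 9.76 and 9.70 in folate and 9.64 and 9.75 in 004, and rose by 0.76 and 0.83. LYN, the Src family kinase that has been described beside folate receptor alpha in lipid rafts, read 9.39, 9.30 and 9.30 against 10.46, 10.22 and 10.33 in folate and 10.32 and 10.40 in 004. It fell by 1.01 and 1.03, but its other probe sets differed by 0.11 and -0.41 against folate. SRC and FYN differed by 0.05 and 0.03 against folate and were not called. Of 18 other receptor tyrosine kinases and ligands, PDGFC and MERTK rose, by 0.67 and 0.62 against folate, a share of 11.1%, near that of all genes. These 2 lists had 1 and 0 genes called higher with replicate 1 of 004 included.

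In the Wnt list 8 of 21 tested members (38.1%) were called higher and 0 lower, where 7.93% and 1.7% of all genes tested were. The list's median was 0.48 against folate and 0.49 against 004. Besides FZD7 and FZD6, the co-receptor LRP6 read 9.92, 10.15 and 9.88 in MORAb003, 9.24, 9.14 and 9.07 in folate and 9.0 and 9.07 in 004. It rose by 0.84 and 0.95 on its brightest probe set, and its others differed by -0.06 and 0.12 against folate. LGR4, a receptor for R-spondins, read 11.08, 11.12 and 11.10 against 10.40, 10.34 and 10.33 in folate and 10.26 and 10.21 in 004, and rose by 0.74 and 0.87. CTNNB1, beta-catenin itself, read 12.87, 12.86 and 12.79 against 12.32, 11.95 and 12.10 in folate and 11.96 and 11.97 in 004. It rose by 0.72 and 0.87, with a second probe set at 1.11 and 1.17. DKK1, a secreted inhibitor of LRP5 and LRP6, rose by 0.89 and 0.84 from control means of 5.95 and 6.0. It passed the filter only through the MORAb003 mean of 6.84, and without DKK1 the count is 7 of 20.

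AXIN2, RNF43 and ZNRF3, usual transcriptional targets of beta-catenin that feed back on the pathway, differed by -0.25, -0.28 and 0.48 against folate and were not called. GSK3B, a kinase of the beta-catenin destruction complex, differed by -0.35 and -0.49. The difference in calls between receptors and these targets was not tested. Putting replicate 1 of 004 back left 1 of 21 called. Of the 13 members tested on a second brightest probe set 3 were called by it.

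In the list of TGF-beta, BMP and ID genes 6 of 17 tested members (35.3%) rose, 5 receptors and ID2, and 0 fell. Among all genes tested 7.93% were called higher and 1.7% lower. The list's median was 0.41 against folate and 0.42 against 004. TGFBR2, the type II receptor of TGF-beta, read 12.21, 12.40 and 12.33 in MORAb003, 11.69, 11.54 and 11.53 in folate and 11.54 and 11.44 in 004. It rose by 0.73 and 0.82, with a second probe set, near the filter, at 0.11 and 0.15. TGFBR3, the co-receptor betaglycan, rose by 0.78 and 0.89, with a second probe set at 0.84 and 0.94. TGFBR1, BMPR2 and ACVR1 rose by 0.72, 0.72 and 0.83 against folate and by 0.70, 0.84 and 0.96 against 004. The other 3 probe sets of BMPR2 did not share the rise, at -0.14 to 0.16 against folate. ID2, an inhibitor of helix-loop-helix factors that BMP signals induce, read 10.96, 10.86 and 11.15 against 9.95, 9.93 and 9.88 in folate and 9.83 and 10.08 in 004, and rose by 1.07 and 1.04, with 1.04 and 1.06 on a second probe set. ID1 at 0.47 and 0.66, ID3 at 0.08 and -0.03, SMAD7 at -0.05 for each and SMAD4 at 0.09 for each were not called against both. Just 1 of the 17 was called with replicate 1 of 004 included.

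Of 19 tested genes of the Notch and Hippo pathways 4 (21.1%) rose, where 7.93% of all genes tested were called higher. JAG1, a Notch ligand, had a mean of 12.95 ± 0.08 (SD, n = 3 arrays) in MORAb003 and 12.13 ± 0.18 in folate. It rose by 0.82 and 0.95, and its other 3 probe sets differed by 0.64 to 1.91 against folate. AMOTL2 and ANKRD1, targets of the Hippo effector YAP, rose by 0.70 and 1.05 against folate, and STK3, a Hippo kinase, by 0.59. ANKRD1, with control means of 5.88 and 5.93, passed the filter only through its MORAb003 mean of 6.93, and without it the count is 3 of 18. Including replicate 1 of 004 left 1 of the 19. Of 16 semaphorins and receptors 3 (18.8%) rose, or 0 with replicate 1 of 004 included, and the list's median was 0.01. SEMA3C, a secreted guidance factor, read 11.23, 11.41 and 11.09 in MORAb003, 9.81, 9.73 and 9.74 in folate and 9.44 on both 004 arrays. It rose by 1.49 (SE 0.08, limma adjusted p = 7.68e-08) and 1.81 (SE 0.09, adjusted p = 5.21e-08), with a second probe set at 0.42 and 0.75. NRP1, a neuropilin that serves as semaphorin co-receptor, rose by 1.05 and 1.11, with -0.34 and -0.18 on its other probe set, and SEMA4B rose by 0.77 and 1.01.

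**Figure D5:**
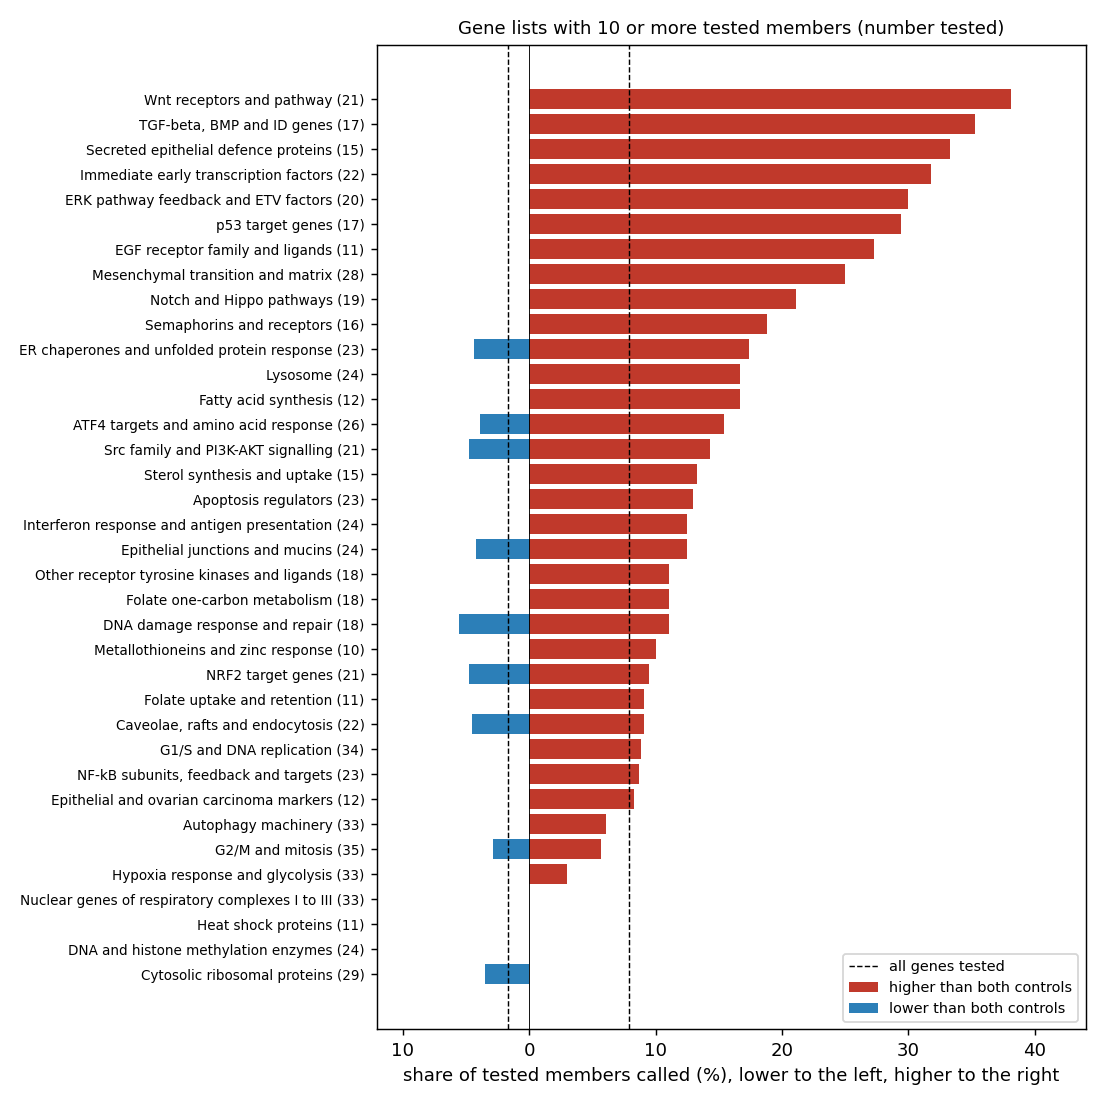
Share of the tested members of each list (number in brackets) called higher (red, right) or lower (blue, left) than both controls, for lists with 10 or more tested members, with dashed lines at the shares of all genes tested, 7.93% higher and 1.7% lower. The Wnt list stands at 38.1%, which includes DKK1, and the TGF-beta and BMP list at 35.3%, an order that changes with the processing, and the lists of respiratory complexes, heat shock proteins and methylation enzymes have 0 called genes.

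Matrix and mesenchymal genes rose in 7 of 28 tested members (25%) and fell in 0, against 7.93% and 1.7% of all genes tested. The list's median was 0.35 against folate and 0.40 against 004. LAMC1, the gamma 1 chain of laminins, read 13.47 ± 0.11 (SD, n = 3 arrays) in MORAb003, 12.43 ± 0.07 in folate and 12.40 ± 0.08 (n = 2) in 004, and rose by 1.04 and 1.07. LAMB1, its beta 1 partner, rose by 0.79 and 1.02, and VIM, the intermediate filament vimentin, by 0.71 and 0.80. ZEB1, a repressor of epithelial genes, rose by 1.17 and 1.5 on its brightest probe set and differed by -0.27 and -0.06 on the other. TIMP2, a metalloprotease inhibitor, rose by 0.82 and 0.94, with others at -0.17 and 0.42 against folate. FN1 at 0.16, CDH2 at -0.15 and SNAI1 at -0.08 against folate were not called. Including replicate 1 of 004 left 4 of 28 called.

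Epithelial genes were called in both directions. Of 24 genes of epithelial junctions and mucins 3 rose (12.5%) and 1 fell (4.17%), or 1 and 1 with replicate 1 of 004 included. Over all genes tested the shares were 7.93% higher and 1.7% lower. CLDN1, a claudin of tight junctions, had means of 12.50 in MORAb003, 11.38 in folate and 11.32 in 004, and rose by 1.12 and 1.18, with a second probe set at 1.29 and 1.55. DSP, desmoplakin, rose by 0.64 and 0.96, and KRT8 by 0.67 and 0.61. PKP3, a desmosomal plakophilin, fell by 0.89 and 0.84, with a second probe set at -0.48 and -0.55. CDH1, E-cadherin, differed by -0.46 and -0.35 and was not called.

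Secreted and surface proteins of epithelial defence rose in 5 of 15 tested members (33.3%), against 7.93% of all genes tested. The list's median was 0.42 against folate and 0.38 against 004. CD55 and CD46, which protect cells from complement, rose by 1.38 and 0.96 against folate and by 1.57 and 1.10 against 004. The other probe sets of CD55 differed by 0.70 and 0.72 against folate, and those of CD46 by 1.08 and 0.57. SLPI, a secreted inhibitor of serine proteases, had means of 12.31, 11.30 and 11.32 in MORAb003, folate and 004 and rose by 1.01 and 0.99. PI3 and PTGDS rose by 0.67 and 0.62 against folate. Including replicate 1 of 004 left 3 of 15 called.

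Of 11 tested genes of folate uptake and retention 1 (9.09%) was called higher, where 7.93% of all genes tested were. SLC25A32, a mitochondrial carrier of folate and flavin, read 9.66, 9.61 and 9.54 in MORAb003, 8.53, 8.22 and 8.37 in folate and 8.19 and 8.66 in 004. It rose by 1.23 (SE 0.11, limma adjusted p = 1.84e-06) and 1.18 (SE 0.12, adjusted p = 6.73e-06). SLC19A1, the reduced folate carrier, differed by -0.59 and -0.52 and was called against folate only. SLC46A1, the proton-coupled folate transporter, differed by -0.09 and -0.14, FPGS, which adds glutamates that retain folate, by -0.06 and -0.22, and GGH, which removes them, by 0.31 and 0.23. Among the 18 one-carbon metabolism genes tested, GLDC of the glycine cleavage system and MTFMT, the mitochondrial formyltransferase of initiator methionine, rose by 0.67 and 0.70 against folate. TYMS at 0.07 and 0.03, SHMT2 at 0.08 and 0.05 and MTHFD2 at 0.35 and 0.33 were not called. Of 24 enzymes of DNA and histone methylation 0 were called. The folate uptake and the one-carbon lists had 0 called genes with replicate 1 of 004 included.

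Amino acid and stress responses split. Of 26 tested targets of ATF4 and the amino acid response 4 rose (15.4%) and 1 fell (3.85%), with a median of -0.07 against folate. Of all genes tested 7.93% were called higher and 1.7% lower. Besides CTH, PSPH, the last enzyme of serine synthesis, rose by 0.95 and 1.05, with a second probe set at 0.70 and 0.88, SLC7A11, the cystine importer, rose by 0.69 and 0.88, and VLDLR by 0.89 and 1.01. ATF5 fell by 0.68 and 0.78, and its other 3 probe sets were lower by 0.28 to 0.91 against folate. The usual ATF4 targets ASNS, TRIB3, DDIT3 and CHAC1 differed by 0.08, 0.17, 0.06 and -0.19 against folate and were not called. Of 23 genes of the endoplasmic reticulum 4 rose (17.4%) and 1 fell (4.35%). DNAJB9, a co-chaperone of that compartment, rose by 1.16 and 1.14, with others at 1.34 and 1.59 against folate. EIF2AK3, the stress sensor PERK, rose by 0.85 and 1.00. HSPA5, the chaperone BiP, differed by 0.08 and 0.18, and PDIA3 fell by 0.68 and 0.75 on its brightest probe set with 0.30 and 0.48 on the others against folate. The count was 1 higher and 0 lower in each of these 2 lists with replicate 1 of 004 included. Of 11 heat shock genes 0 were called, with a median of -0.17.

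Genes listed as targets of p53 rose in 5 of 17 tested members (29.4%), where 7.93% of all genes tested were called higher. The list's median was 0.30 against folate and 0.33 against 004, and the activity of p53 itself was not measured. RRM2B, a ribonucleotide reductase subunit, rose by 0.97 and 1.05, ZMAT3 by 0.82 and 0.86 and TP53INP1 by 0.79 and 0.91, the last with another probe set at -0.17 and -0.24. FAS, a death receptor, rose by 0.72 against each, and its other 3 probe sets differed by 0.91 to 1.64 against folate. MDM2, the ligase that turns over p53, rose by 0.63 and 0.91 on its brightest probe set, with its other 3 at -0.06 to 0.28 against folate. CDKN1A, the p21 inhibitor that p53 induces, differed by -0.05 and -0.06, and BAX by -0.16 and -0.34. Of the 17, 0 were called with replicate 1 of 004 included. Of 23 apoptosis regulators CASP8, XIAP and APAF1 rose, by 1.10, 0.94 and 0.67 against folate, each with at least 1 other probe set within 0.1 of 0.

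Cell cycle genes were called about as often as all genes, of which 7.93% were called higher and 1.7% lower. Of 34 G1/S and replication genes 3 rose: CCNE2, a cyclin E, by 1.03 and 0.96, CDC6, a licensing factor, by 0.89 and 0.84, and CDKN1B, the p27 inhibitor, by 0.68 and 0.66. Of 35 G2/M genes MAD2L1 and TTK of the spindle checkpoint rose, by 0.70 and 0.60 against folate. TOP2A, topoisomerase II alpha, fell by 0.84 and 0.68 on its brightest probe set and differed by 0.30 and 0.39 on the other. MKI67 differed by -0.42 and -0.43 and was not called. Of 18 DNA repair genes, PRKDC, the catalytic subunit of DNA-dependent protein kinase, rose by 1.47 and 2.11, with 1.28 and 1.17 on a second probe set. NBN rose by 0.64 and 0.72, with its other 3 probe sets at -0.28 to 0.59 against folate, and XRCC2 fell by 0.98 and 0.96. The counts were 0 for both cell cycle lists with replicate 1 of 004 included, and the DNA repair list then had 0 genes called higher and 1 called lower.

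Lipid and lysosomal genes were higher in a few members. The shares were 16.7% for fatty acid synthesis, 13.3% for sterol genes and 16.7% for lysosomal genes, against 7.93% of all genes tested. SCD, the desaturase that makes oleate, rose by 0.73 and 0.97, with others at 0.03 to 0.47 against folate, and ACSL1 rose by 0.82 and 0.85. They were 2 of 12 genes of fatty acid synthesis, whose median was 0.37. STARD4, a cholesterol transporter, and MSMO1, a cholesterol synthesis enzyme, rose by 0.98 and 0.91 against folate, as 2 of 15 sterol genes. NPC1 and NPC2, which export cholesterol from lysosomes, rose by 0.67 and 0.73 against folate, as 2 of the 4 of 24 lysosomal genes called, with SCARB2 and ASAH1 at 0.74 and 0.66. Other probe sets of SCARB2 ranged from -0.13 to 1.49 against folate. These 3 lists had 0 called genes with replicate 1 of 004 included.

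Of 22 genes of caveolae, rafts and endocytosis EEA1 and RAB27B rose, by 0.69 and 0.68 against folate, and MAL, a raft proteolipid, fell. Over all genes tested 7.93% were called higher and 1.7% lower. MAL had means of 11.77 ± 0.06 (SD, n = 3 arrays) in MORAb003, 12.70 ± 0.04 in folate and 12.73 ± 0.04 (n = 2) in 004, and fell by 0.93 and 0.96. CAV1, caveolin-1, differed by 0.23 and 0.22. Of 21 NRF2 targets 2 rose, AKR1C3 by 1.40 and 1.46 and SLC7A11 by 0.69 and 0.88. KEAP1, which degrades NRF2, fell by 0.63 and 0.64. Of 10 metallothionein and zinc genes SLC39A10, a zinc importer, rose by 1.13 and 1.26, while MT2A differed by -0.60 and -0.55 and was not called against both. Including replicate 1 of 004 left MAL called lower and 1 NRF2 target called higher in these 3 lists.

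Respiratory, ribosomal, hypoxia and autophagy genes had few calls, where 7.93% of all genes tested were called higher and 1.7% lower. Of 33 nuclear genes of respiratory complexes 0 were called, with a median of -0.09. Of 29 ribosomal protein genes 1, RPLP2, fell by 0.97 and 1.03, and the list's median was 0.07. Of 33 hypoxia and glycolysis genes 1 rose, PDK1, an inhibitory kinase of pyruvate dehydrogenase, by 0.89 and 0.87 on its brightest probe set with -0.11 and -0.09 on the other. Of 33 autophagy genes WIPI1 and RB1CC1 rose, by 0.97 and 0.71 against folate, WIPI1 from control means of 6.53 and 6.56, just under the filter. Of 23 NF-kB genes CHUK, the IKK-alpha kinase, and CXCL1 rose, by 0.82 and 0.69 against folate. Of 24 interferon genes IFITM1, IFI6 and IRF9 rose, by 0.85, 0.83 and 0.72 against folate. Including replicate 1 of 004 left 2 autophagy, 2 interferon, 0 hypoxia, 0 NF-kB, 0 apoptosis and 0 ribosomal genes called.

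The labels name the 003 antibody in a further folate-fed extract, and no test against it was made here. Whether it is the antibody MORAb003 is not stated, so the values below may or may not be those of a different antibody. For reference, FZD7 had a mean of 7.5 ± 0.18 (SD, n = 3 arrays) in the 003 extract and 8.02 ± 0.24 in the folate-free extract, against 10.99 ± 0.17 in MORAb003. DUSP6 read 10.62 ± 0.20 and 11.60 ± 0.10 against 12.94 ± 0.03, and MAL read 11.97 ± 0.03 and 12.81 ± 0.07 against 11.77 ± 0.06, in the same order.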

How the data were processed

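Messenger RNA of SKOV3ip1 cells was measured on Affymetrix U133 Plus 2.0 arrays from RNA extracted with Trizol, per the labels' protocols. The authors deposited log2 values, 1 per probe set. Which summary and normalization methods the authors used is not given in the sources used here. Values near 4 at the low end may understate differences of dim genes. They were used as deposited. Array medians were 6.53 to 6.61. The number of arrays limits the precision, and depth does not apply.

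Of 54675 probe sets, 62 controls were left out, 41091 had 1 gene symbol, 1801 several and 11721 none. Symbols of 41037 probe sets were updated through the Entrez identifier. Each of 19775 genes was read by its brightest probe set, averaged over all 15 arrays. Genes with an extract mean of at least 6.57, the median of all probe sets, were tested. The fit used limma 3.58.1 in R 4.3.3 on 8 arrays with 3 group means and 5 residual degrees of freedom. Calls needed a Benjamini-Hochberg adjusted p under 0.05 and 1.5-fold. The fit was tested on simulated data. Genes not matched to a probe set with 1 symbol were not analysed here.

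Named were FOLR1, the 12 higher and 12 lower genes with the largest smaller difference, and per list up to 6 called members ordered the same way, with any member as an uncalled example. The comparison, the members and the lists were chosen with earlier results of these data known. The motifs were chosen after the values were seen. Motifs searched in the 250 bases before the start, on both strands, were the cyclic AMP element core TGACGT, the AP-1 site TGANTCA, the ETS site CCGGAAG and the CArG box. The AP-1 site occurred in 6.6% and the ETS site in 8.82% of all promoters, and neither is in the 4 printed. Alternatives changed the arrays used, the normalization, the filter, the probe set rule, the fold minimum, the block, the date term and the variance prior.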

Additional observations from a re-analysis of the deposited data

Results flagged for a closer look

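Probe sets without a gene symbol took no part in the comparisons above, and they too held differences from both controls. Of the 3606 such probe sets above the filter, 164 were called higher and 60 lower than both the folate and the 004 extract, at an adjusted p under 0.05 in limma and 1.5-fold. Between the 2 controls 0 were called. Of 1157 probe sets with several gene symbols, 68 were called higher and 27 lower. Of the genes tested 7.93% were called higher and 1.7% lower, so higher calls were less frequent in both groups of probe sets.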

How the results depend on the processing

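With replicate 1 of the 004 extract put back, 247 genes were called against both controls (190 higher, 57 lower) and 278 against folate, where that array enters only through the shared error. Against 004 it gave 1856 (1677 higher, 179 lower). The mean of all probe sets gave 690 against both, 756 against folate and 906 against 004. The second brightest gave 786, 887 and 974, with 197 of the 786 among the 1347. No fold minimum gave 5704, 6675 and 6740, and a 2-fold minimum 235, 257 and 370. Leaving out each array gave 1208 to 1507, 1296 to 1771 and 1648 to 1971. For 004 minus folate it gave 0 to 1, with 1 without folate replicate 1 and 1 without 004 replicate 2, and 0 in every other setting run. Extract means as the unit gave 1347 on 1 residual degree of freedom, which rests on the small distance between the controls. The fit of 14 arrays and the trended and robust prior also gave 1347. The order of the lists by their share of higher calls also moved: TGF-beta and BMP genes (6 of 17) passed Wnt genes (7 of 21) with centred arrays and with the replicate block, and immediate early genes (7 of 22) passed them (6 of 21) after quantile normalization. Filters gave 1180 to 1392, the first array date alone 1413 and the date as a term 1333. The brightest probe set over the 8 arrays, chosen after seeing the data, gave 1394. The second date alone has 1 array per extract, hence no test and no count.

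A replicate block gave 1288. The numbers do not pair the samples: deviations of same-numbered arrays correlated at -0.25 to 0.13 in 7 pairs and those of other numbers at -0.29 to 0.35.

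Of the 129 named genes, 26 changed sign with the second brightest probe set. The smaller difference became -0.90 for FOLR1, 0.012 for MPHOSPH8, 0.38 for SLC2A4RG, 0.10 for UBE3A, 0.055 for WBP4, 0.0054 for INHBC, 0.017 for EID1 and 0.046 for LYN. It became -0.059 for SPRY1, -0.28 for DUSP1, -0.067 for EREG, -0.058 for IRS2, -0.019 for LRP6, -0.18 for NRP1 and 0.30 for both PDIA3 and TOP2A. It became -0.029 for HSP90B1, -0.011 for SEL1L, -0.17 for TP53INP1, -0.24 for NBN, -0.0915 for CASP8, -0.053 for APAF1, -0.059 for ZEB1, -0.15 for TIMP2 and -0.0896 for PDK1. XIAP moved to 0.0073 with the opposite sign against folate. With the mean of all probe sets FOLR1 was at -0.18 and PDIA3 at 0.011, and with the brightest probe set over the 8 arrays EID1 was at 0.017. The cause was not tested. With replicate 1 of 004 put back 84 named genes were no longer called, with quantile normalization 15 and with centred arrays 22.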

Other observations

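Genes picked out by symbol after their values were seen, among them genes of transport from the endoplasmic reticulum to the Golgi, included several called higher. The SEC symbols are not limited to that transport. Of 25 tested genes whose symbol begins with SEC and a number, 7 were called higher and 0 lower than both controls, where 7.93% and 1.7% of all genes tested were, while the median of the 25 was 0.03 against folate and 0.06 against 004. SEC23A, SEC24A, SEC24D and SEC31A, subunits of the COPII coat, rose by 0.68, 0.60, 0.68 and 0.59 against folate and by 0.79, 0.76, 0.87 and 0.84 against 004. SEC16B, which marks the sites where COPII vesicles form, rose by 1.38 and 1.51. SEC22C and SEC14L1 rose by 0.64 and 0.72 against folate. Of 15 TRAPPC genes, which encode the TRAPP tethering complexes, TRAPPC11, TRAPPC2, TRAPPC13 and TRAPPC6A rose by 1.37, 0.84, 0.78 and 0.60 against folate, and TRAPPC10 fell by 0.88. TRAPPC13 passed the filter only through its MORAb003 mean, and without it 3 of 14 were called higher. No test was made of either family.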
